A study of Mus musculus with 6 samples.

Results

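The coronins are a family of 7 mouse genes, Coro1a, Coro1b, Coro1c, Coro2a, Coro2b, Coro6 and Coro7. Their transcripts were measured by RNA-seq in neural stem cells with floxed Phf2 alleles, with Nestin-Cre (KO) or without Cre (WT). All 7 symbols were present among the 24503 gene symbols of the count table, and 5 of them passed the filter on low counts that left 13683 genes for testing. The family was chosen by 1 measured value of these libraries: Coro2b stood out for its low p in an earlier reading of KO against WT. Its difference between KO and WT is therefore given as a description, with no p-value, and the other members, which follow from the family name alone, are tested.

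KO cells carried the Nestin-Cre transgene and floxed Phf2 on both alleles (Nestin-Cre Tg, Phf2flox/flox), and WT cells carried the same floxed alleles without Cre, with 3 libraries in each group. The Cre transgene (Tg(Nes-cre)1Kln) is driven by Nestin regulatory sequence, which is active in neural progenitors, and it was present only in KO, so effects of Cre itself and of Phf2 loss cannot be told apart. The floxed alleles were shared by both groups. Primary cells came from the cortex of E13.5 mouse embryos, were enriched as neurospheres, and were expanded on laminin with FGF and EGF, so both groups describe growing cultures rather than tissue. Nothing in the labels says whether the libraries of a group came from separate cultures or embryos, so the spread behind each p-value may be technical. Phf2, which encodes a histone demethylase of the Jumonji family, had 2315, 2041 and 1640 counts in KO 1, 2 and 3, against 4996, 3647 and 3670 counts in WT 1, 2 and 3. The groups did not overlap. In edgeR the Phf2 log2 fold change was −0.85 ± 0.150 (SE, adjusted p = 0.182). With the replicate number as a block its adjusted p was 0.000123. Counts are per gene, so reads from inside and outside a deleted part cannot be told apart. The source of the Phf2 counts that remained in KO was not tested.

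Coronins are WD40-repeat proteins that fold into a beta propeller and bind filamentous actin. Type I coronins (Coro1a, Coro1b, Coro1c and Coro6) carry a coiled coil through which they form oligomers and meet the Arp2/3 complex, the machine that starts branched actin filaments, and Coro1b is known for bringing the cofilin phosphatase Slingshot to such branches. Type II coronins (Coro2a and Coro2b) are best known from the nervous system and from cell adhesions, and the type III member Coro7 has tandem propellers, lacks the coiled coil and sits at the Golgi apparatus.

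Total counts ranged from 33413444 to 42503715 per KO library and from 39120340 to 46890314 per WT library. The libraries numbered 1 stood apart from the others in both groups: 57.6% of tested genes passed edgeR's quasi-likelihood test when number 1 was set against numbers 2 and 3, with genotype as a covariate. KO 2 and KO 3 were the pair with the smallest distance. The stem cell markers Vim (4567 CPM in KO and 4591 CPM in WT), Fabp7 (2087 CPM in KO and 1997 CPM in WT) and Nes (1104 CPM in KO and 1046 CPM in WT) were abundant, where CPM is the count scaled to library size with TMM factors, and markers of muscle (summed 0.519 to 1.05 CPM in KO and 0.694 to 1.00 CPM in WT) and of endothelium (1.67 to 2.38 CPM in KO and 1.64 to 2.41 CPM in WT) were near 0. Of the 10 listed stem cell markers, 1 was called higher and 1 lower in KO with the replicate number as a block, where 3.33% and 6.46% of all genes were. In number 1, 1 was higher and 7 lower, where 28.2% and 29.4% of all genes were. Prom1 was at 2.97 ± 0.389 CPM in KO and 7.54 ± 0.375 CPM in WT (SD, n = 3). Over the 6 libraries Nes ranged from 687.3 to 1748 CPM and Hes5 from 18.3 to 312.3 CPM. The summed level of 10 neuronal markers was 853 to 1077 CPM in KO and 796 to 1108 CPM in WT, mostly Map2 and Gap43. Astrocyte markers summed to 471 to 984 CPM in KO and 542 to 1181 CPM in WT, and oligodendrocyte lineage markers to 3390 to 3645 CPM in KO and 3447 to 4198 CPM in WT. Prrx1 made up nearly all of the fibroblast and mesenchyme sum of 154 to 162 CPM in KO and 140 to 156 CPM in WT, and Dcn, a defining marker of fibroblasts, was at 0 counts in every library.

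KO cells held more coronin transcript per length than WT cells, and the gap came mostly from Coro2b and Coro1c. Divided by the length of annotated exons, all coronins together reached 119.2, 119.1 and 115.8 CPM per kb in KO 1, 2 and 3, against 85.3, 84.4 and 89.0 CPM per kb in WT 1, 2 and 3. The groups did not overlap. As Coro2b is part of the sum, this too is a description.

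The promoter windows of the 2 members that were higher in every KO library, Coro2b and Coro1c, and of Coro2a, the closest relative of Coro2b, are shown for comparison of their CG content. They run from 250 bases before to 50 bases after the annotated start, are taken from RefSeq on GRCm38.p6, and read 5′ to 3′ on the minus strand, with each CG in capitals. The Coro2b window is chr9:62536995-62537294, the Coro1c window chr5:113908657-113908956 and the Coro2a window chr4:46601880-46602179.
Coro2b: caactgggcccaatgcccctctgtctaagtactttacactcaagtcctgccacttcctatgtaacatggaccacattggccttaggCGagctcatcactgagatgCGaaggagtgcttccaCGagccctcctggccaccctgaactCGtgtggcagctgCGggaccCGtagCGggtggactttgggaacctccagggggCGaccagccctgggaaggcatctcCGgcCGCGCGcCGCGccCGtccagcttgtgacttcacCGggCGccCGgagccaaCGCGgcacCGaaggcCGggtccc
Coro1c: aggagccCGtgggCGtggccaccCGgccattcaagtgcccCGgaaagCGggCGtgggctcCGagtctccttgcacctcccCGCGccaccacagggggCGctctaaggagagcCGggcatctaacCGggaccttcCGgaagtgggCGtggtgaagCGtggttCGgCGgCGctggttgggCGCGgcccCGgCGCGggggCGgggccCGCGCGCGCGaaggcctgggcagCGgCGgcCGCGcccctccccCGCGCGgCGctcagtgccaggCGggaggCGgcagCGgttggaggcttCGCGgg
Coro2a: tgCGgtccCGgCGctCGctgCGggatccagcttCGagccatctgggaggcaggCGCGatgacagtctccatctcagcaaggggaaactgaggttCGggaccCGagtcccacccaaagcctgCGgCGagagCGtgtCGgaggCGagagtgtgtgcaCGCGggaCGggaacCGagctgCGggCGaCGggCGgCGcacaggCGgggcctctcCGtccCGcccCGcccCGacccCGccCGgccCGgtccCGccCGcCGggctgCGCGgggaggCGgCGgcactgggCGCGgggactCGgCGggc

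The Coro2b window held 22 CG and 64.3% G or C, the Coro1c window 42 CG and 77.0%, and the Coro2a window 43 CG and 76.0%. A second Coro2a window in the table, from an inner start at chr4:46566391-46566690 and not printed, held 3 CG. The median over all 32851 windows of the table was 7 CG and 52.7% G or C. The 3 printed windows were richer in CG than the median, and the second Coro2a window was poorer. In all, 9 windows of 6 coronins were found in the table. None of the 9 held TATAAA on either strand, which 13.6% of all windows did, and none held a CArG box, the motif of serum response factor, which 1.63% of all windows did.

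Coro2b (chromosome 9, 62419492 to 62537044, minus strand, GRCm38) encodes a type II coronin known from the nervous system. It had 9026, 8265 and 6406 counts in KO 1, 2 and 3, against 4771, 3302 and 3698 counts in WT 1, 2 and 3. After scaling these were 219.6, 194.8 and 190.5 CPM in KO, against 103.7, 81.9 and 78.4 CPM in WT. Every KO library lay above every WT library. The means were 201.6 ± 15.7 CPM in KO and 88.0 ± 13.7 CPM in WT (SD, n = 3 each), a log2 fold change of 1.20 ± 0.139 (SE), or 1.20 ± 0.0662 (SE) with the replicate number as a block. Within replicate numbers the fold was 2.12 for KO 1 over WT 1, 2.38 for KO 2 over WT 2 and 2.43 for KO 3 over WT 3. In bulk RNA, more cells that express a gene and more RNA per cell cannot be told apart. Neuronal markers overlapped between groups in their summed level, given above, which is mostly Map2 and Gap43. Of 9 tested neuronal markers, 3 were lower in KO with the block and 0 higher, where 6.46% and 3.33% of all genes were called lower and higher. Of 7 astrocyte markers 4 were lower in KO with the block and 1 higher, and 0 were called without it; in the sum given above most of the level is Aldoc, which was at 565.5 ± 270.5 CPM in KO and 474.2 ± 250.2 CPM in WT. Aldh1l1, an enzyme of folate metabolism used as an astrocyte marker, was at 39.1 ± 2.89 CPM in KO and 158.5 ± 47.2 CPM in WT, without overlap, and Gfap at 43.6 ± 34.6 CPM in KO and 104.6 ± 86.1 CPM in WT (SD, n = 3). The part of these markers in the Coro2b difference was not tested.

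Coro2a (chromosome 4, 46536937 to 46602202, minus strand), the other type II coronin, is also known as a component of the NCoR corepressor complex. It had 8, 6 and 6 counts in KO 1, 2 and 3, against 3, 7 and 3 counts in WT 1, 2 and 3. The sums of 20 counts in KO and 13 counts in WT fell under the filter, the groups overlapped, and a difference was not detectable at this depth. Transcripts of the type II class therefore came almost wholly from Coro2b in both groups.

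Coro1c (chromosome 5, 113842436 to 113908758, minus strand) encodes a widely expressed type I coronin of the leading edge of moving cells, and it was the member with the most transcript. It had 543.0, 481.7 and 474.4 CPM in KO 1, 2 and 3, against 419.2, 365.5 and 371.4 CPM in WT 1, 2 and 3. The groups did not overlap, which 4.49% of tested genes did in the same direction. The means were 499.7 ± 37.7 CPM in KO and 385.4 ± 29.5 CPM in WT (SD, n = 3 each). In edgeR, with p adjusted over all genes by Benjamini-Hochberg, the log2 fold change of 0.37 ± 0.105 (SE) had adjusted p = 0.469. The replicate number as a block left it at 0.37 ± 0.0623 (SE) and gave adjusted p = 0.00449, while DESeq2 without the block gave 0.0948. It also passed in numbers 2 and 3 alone, with number 1 as the block, and with KO 2 and KO 3 summed and number 1 as the block, where 5.4%, 10.6% and 4.94% of all genes were called. The fold was 1.29 for KO 1 over WT 1, 1.32 for KO 2 over WT 2 and 1.28 for KO 3 over WT 3, so its spread between numbers was small.

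Coro1b (chromosome 19, 4148619 to 4154035, plus strand), the type I coronin known for its place at lamellipodia, had 74.1, 100.9 and 96.1 CPM in KO 1, 2 and 3, against 69.8, 89.2 and 102.9 CPM in WT 1, 2 and 3. The groups overlapped fully, and edgeR gave a log2 fold change of 0.05 ± 0.185 (SE, adjusted p = 0.999) without the block and 0.05 ± 0.0715 (SE, adjusted p = 0.703) with it. Its exons share 432 bases with Ptprcap on the same strand and 45 bases with Rps6kb2 on the other; Ptprcap had at most 10 counts in any library, and Rps6kb2 averaged 18.1 ± 3.37 CPM in KO and 17.9 ± 3.44 CPM in WT (SD, n = 3 each).

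Coro1a (chromosome 7, 126699773 to 126707787, minus strand), the coronin of blood and immune cells, was measured at a low level: 2.58, 3.35 and 3.03 CPM in KO 1, 2 and 3, against 2.15, 3.20 and 3.58 CPM in WT 1, 2 and 3. The groups overlapped, and edgeR's adjusted p was 0.999; under the block it was 0.953, at a difference of 0.02 ± 0.163 (log2, SE). Of 12 markers of microglia and blood cells, Aif1, C1qa, C1qb, Ptprc, Trem2 and Tyrobp were at 0 counts in every library. The summed level of all 12 was 2.48 to 2.94 CPM in KO and 2.11 to 3.84 CPM in WT, mostly Cd68 and P2ry12. Coro1a shares 26 bases of exon with Bola2 on the opposite strand, at 21.6 ± 1.82 CPM in KO and 21.1 ± 4.32 CPM in WT (SD, n = 3 each), and whether the counting used strand is not stated.

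Coro6 (chromosome 11, 77462411 to 77470484, plus strand), a type I coronin abundant in skeletal muscle, had 1, 4 and 2 counts in KO 1, 2 and 3, against 0, 2 and 9 counts in WT 1, 2 and 3. The 0 in WT 1 allows up to 3 counts, or 0.0652 CPM, by counting error alone. The groups overlapped and the gene was not tested.

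Coro7 (chromosome 16, 4626133 to 4679777, minus strand), the Golgi coronin, had 13.4, 26.5 and 25.4 CPM in KO 1, 2 and 3, against 13.6, 27.9 and 28.4 CPM in WT 1, 2 and 3. Both libraries numbered 1 were low, and genotype made little difference within a number. Between genotypes edgeR gave a log2 fold change of −0.10 ± 0.371 (SE, adjusted p = 0.999) without the block and −0.09 ± 0.0789 (SE, adjusted p = 0.567) with it. Of the 4 members tested besides Coro2b, 0 were called by edgeR without the block and 0 by DESeq2, where 0.0585% and 1.91% of all genes were called. At an unadjusted p under 0.05 edgeR held 1 of the 4, Coro1c, and 5.81% of all genes. With the block 1 of 4 was called, Coro1c, where 9.79% of all genes were called.

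**Figure D1:**
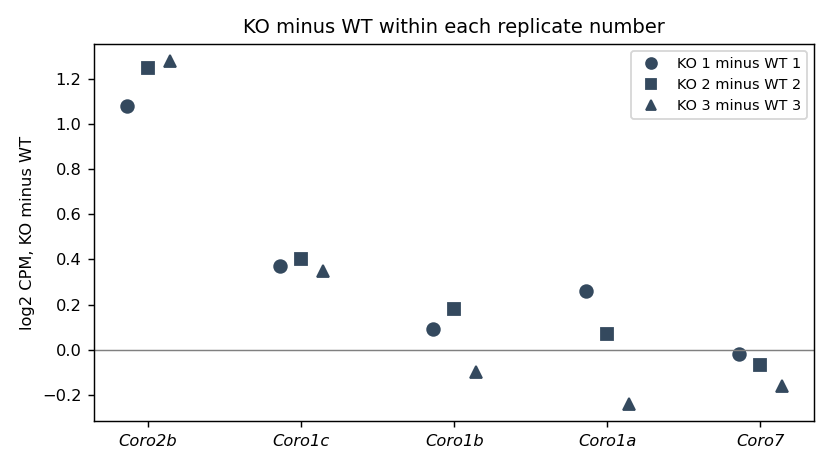
Difference in log2 CPM between the KO and WT library of the same replicate number (y axis) for the 5 coronins that passed the filter; each symbol is 1 pair. Coro2b lies between 1.08 and 1.28 and Coro1c between 0.35 and 0.40, while Coro1b and Coro1a fall on both sides of 0 and Coro7 lies between −0.16 and −0.02.

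Compared per length, the members spanned more than 3 orders of magnitude. In KO, Coro1c led with 51.7 ± 3.90 CPM per kb of exon, followed by Coro2b with 34.1 ± 2.65, Coro1b with 28.2 ± 4.47, Coro7 with 2.94 ± 0.977 and Coro1a with 1.07 ± 0.139 CPM per kb (SD, n = 3). In WT, Coro1c led with 39.9 ± 3.05 CPM per kb, followed by Coro1b with 27.2 ± 5.18, Coro2b with 14.9 ± 2.33, Coro7 with 3.14 ± 1.13 and Coro1a with 1.07 ± 0.266 CPM per kb (SD, n = 3). Coro2b thus stood above Coro1b in KO and below it in WT, and on this length the libraries of neighbouring members did not overlap within either group down to Coro1a. With the longest coding transcript as length, Coro2b and Coro1b overlapped in KO, at 52.8 to 60.8 CPM per kb for Coro2b and 39.2 to 53.4 CPM per kb for Coro1b, so their order in KO is not resolved on both lengths.

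At the low end, Coro2a and Coro6 overlapped in both groups, and their order is not resolved. Coro2a was at 0.0265 ± 0.00422 CPM per kb in KO and 0.0156 ± 0.00976 CPM per kb in WT, and Coro6 at 0.0197 ± 0.0116 CPM per kb in KO and 0.0266 ± 0.0329 CPM per kb in WT (SD, n = 3). Among 16738 detected genes with an annotated length, the level of Coro2b per length lay above 90.9% of genes in KO and above 78.8% in WT. Coro1c lay above 94.4% of genes in KO and 92.4% in WT, and Coro1b above 88.7% in KO and 88.4% in WT.

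**Figure D2:**
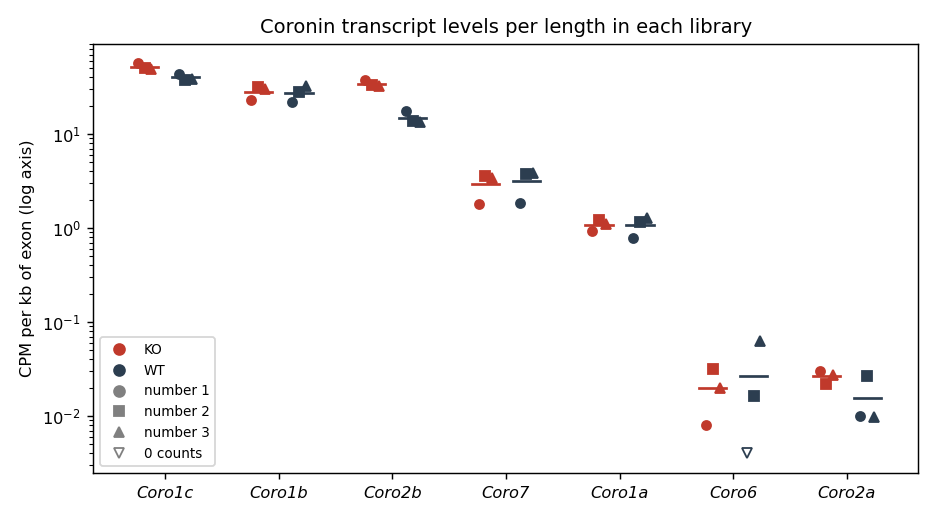
Level of each coronin in CPM per kb of exon on a log axis, for KO (red, left) and WT (dark, right); symbols are libraries by replicate number, horizontal lines are means of 3 libraries, and the open triangle marks a library with 0 counts, drawn at the bottom since 0 has no place on a log axis. Coro2b, by whose difference the family was chosen, is the member whose KO libraries (32.2 to 37.1 CPM per kb) lie farthest above its WT libraries (13.2 to 17.5 CPM per kb) among the 5 that passed the filter.

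The make-up of the family shifted with genotype and with replicate number. Coro2b made up 31.1, 27.6 and 27.8% of coronin transcript per length in KO 1, 2 and 3, against 20.6, 16.4 and 14.9% in WT 1, 2 and 3. Coro1b made up 19.4, 26.4 and 25.9% in KO, against 25.5, 33.0 and 36.1% in WT, and Coro1c held 41.9 to 47.1% in KO and 43.2 to 50.9% in WT. Shares sum to a whole, so a larger share of 1 member lowers the others, and the share of Coro1b moved without a difference in its CPM that passed the test. The level of Coro2b per length relative to that of Coro1c was 0.660, 0.660 and 0.655 in KO 1, 2 and 3, against 0.404, 0.366 and 0.344 in WT 1, 2 and 3. Both the shares and this ratio contain the Coro2b values by which the family was chosen. They are therefore descriptions and give no further support to the Coro2b difference.

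**Figure D3:**
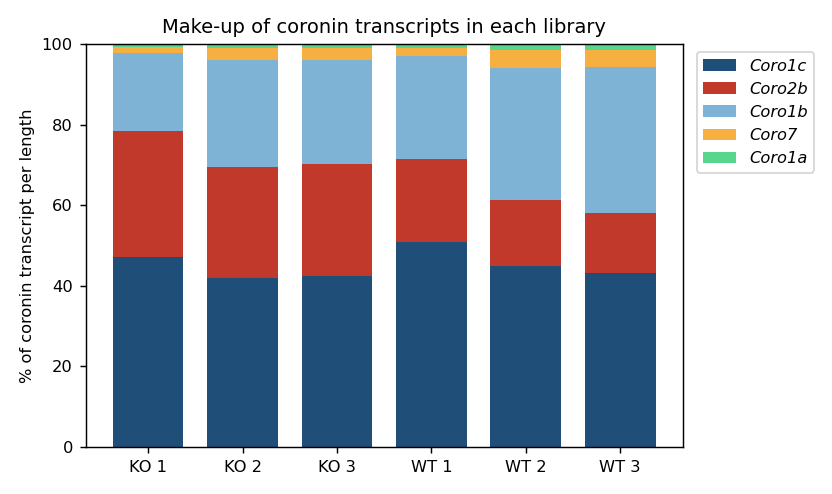
Share of coronin transcript per length (y axis, percent) held by each member in each library; Coro2a and Coro6 hold under 0.1% and are not drawn. Coro2b (red) takes 27.6 to 31.1% in the KO libraries and 14.9 to 20.6% in the WT libraries.

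The replicate number offered a second comparison, which had no part in the choice of the members. It sets KO 1 and WT 1 against the 4 libraries numbered 2 and 3, with genotype as a covariate; what the numbers stand for is not given in the labels. Coro7 averaged 13.5 CPM in number 1 and 27.1 CPM in numbers 2 and 3, a log2 difference of −1.0 ± 0.0755 (SE, edgeR adjusted p = 1.32e-05). Vasn, a gene on the other strand that lies inside Coro7 and shares no exon with it, had 23.7 and 22.2 CPM in KO 1 and WT 1, against 48.2 to 55.5 CPM in the other libraries. Dnaja3, which shares 153 bases of exon with Coro7 on the other strand, went the opposite way, with 70.2 and 78.2 CPM in KO 1 and WT 1 against 44.8 to 50.9 CPM in the others.

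Coro1b and Coro1a were also lower in number 1, by edgeR's test with differences of −0.44 ± 0.0720 (adjusted p = 0.000914) and −0.48 ± 0.158 (adjusted p = 0.0275). Coro2b and Coro1c were higher in number 1, with differences of 0.28 ± 0.0609 (adjusted p = 0.00404) and 0.18 ± 0.0536 (adjusted p = 0.0164; log2, SE, same test). All 5 tested members passed, 2 higher and 3 lower, in a comparison where 28.2% of all genes were called higher and 29.4% lower. For Coro2b, the difference between replicate numbers was smaller than that between genotypes (161.7 CPM in number 1 and 136.4 CPM in numbers 2 and 3), and the Coro2b and Coro1a calls did not hold without WT 1 (adjusted p = 0.0844 and 0.300), nor the Coro1a call without KO 2 (0.0787). The Coro1c call did not hold without WT 1 (0.0973), KO 1 (0.113), KO 2 (0.0546) or KO 3 (0.0858).

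**Figure D4:**
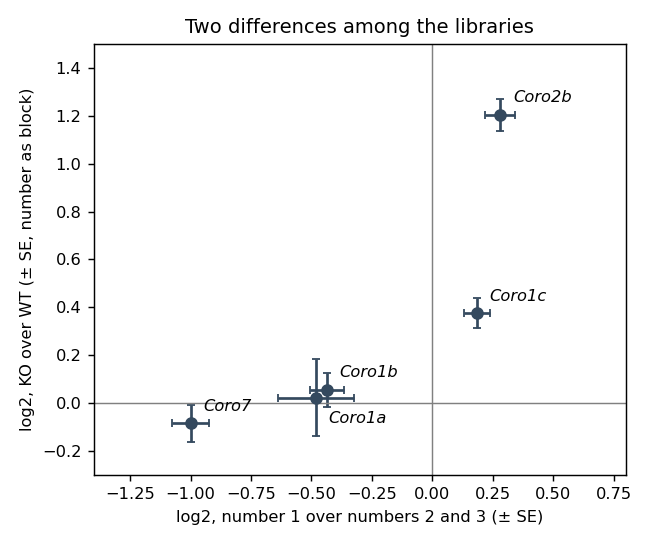
Log2 difference between number 1 and numbers 2 and 3 (x axis) and between KO and WT with the number as a block (y axis) for the 5 coronins that passed the filter; bars are standard errors. Coro7 lies far to the left at −1.0 and near 0 between genotypes, and Coro2b lies at 0.28 and 1.20.

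The chromosomal neighbours of Coro2b were measured in the same fits. The nearest tested genes on the lower-coordinate side were Anp32a, 40680 bases away, at 382.8 ± 7.67 CPM in KO and 335.7 ± 23.5 CPM in WT, and Glce, 296837 bases away, at 35.8 ± 0.996 CPM in KO and 29.8 ± 0.292 CPM in WT (SD, n = 3 each). For both, every KO library lay above every WT library, which held for 4.49% of tested genes. Their log2 fold changes were 0.19 ± 0.0923 and 0.26 ± 0.0947 (SE), and edgeR's adjusted p was 0.999 for Anp32a and 0.724 for Glce. Under the block it was 0.101 for Anp32a and 0.0461 for Glce. Glce was thus called higher with the block, where 3.33% of all genes were. On the other side, Itga11, an integrin gene, was at 0.237 ± 0.188 CPM in KO and 0.429 ± 0.304 CPM in WT, and Fem1b was at 148.4 ± 18.9 CPM in KO and 139.3 ± 31.8 CPM in WT (SD, n = 3 each). Neither passed in either fit, with adjusted p = 0.249 for Itga11 and 0.419 for Fem1b with the block.

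Among 11226 named genes that averaged 2 CPM or more, the 5 whose log2 CPM followed Coro2b most closely over the 6 libraries were Hlx, Cenpc1, Kremen1, Erdr1 and Mapkapk2. Pearson's r was 0.999 for Hlx, a homeobox gene, 0.994 for the centromere protein gene Cenpc1, 0.992 for Kremen1, a receptor for the Wnt inhibitor Dickkopf, 0.992 for Erdr1 and 0.992 for the kinase gene Mapkapk2. These are descriptions over 6 points that share the genotype split and the replicate numbers, and 177 genes had r over 0.9. A high r did not mean a like size of difference: Hlx had 37.9, 32.4 and 31.6 CPM in KO 1, 2 and 3, against 13.98, 10.2 and 9.05 CPM in WT 1, 2 and 3, whereas Mapkapk2 had 126.3, 123.3 and 122.2 CPM in KO, against 111.7, 104.6 and 106.7 CPM in WT. Among the coronins themselves, r with Coro2b was 0.97 for Coro1c, −0.09 for Coro1b, −0.16 for Coro1a and −0.30 for Coro7. When the mean of each replicate number was taken out, 0 of these 5 genes were among the 5 closest, although their r stayed between 0.993 and 1.00.

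Other genes of the actin system were described through 10 lists with 129 genes, of which 126 were found by symbol and 116 were tested. Without the block 0 were called by edgeR. At an unadjusted p under 0.05 there were 8, or 6.90% of them, near the 5.81% of all genes. DESeq2 called 3, or 2.59%, near the 1.91% of all genes; these were Eps8, Flnc and Tmod1, all lower in KO. With the block 8 were called higher and 10 lower, or 6.90% and 8.62%, where 3.33% and 6.46% of all genes were called higher and lower. In numbers 2 and 3 alone the counts were 3 higher and 9 lower. Among all 13764 genes tested there, 251 were called higher and 492 lower, or 5.4% in either direction. With KO 2 and KO 3 summed and number 1 as the block the counts were 4 higher and 6 lower. Among all 13930 genes tested there, 158 were called higher and 530 lower, or 4.94% in either direction. Calls named in what follows are those with the block, and none but Eps8 and Flnc was also made by DESeq2 without it. The median log2 fold change was 0.03 over the 116 genes and 0.01 over all genes tested. The groups did not overlap for 10 members higher in KO and 6 lower, where 4.49% and 6.71% of all genes did so.

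Of 46 tested genes for filament branching and disassembly, 1 was called higher and 0 lower with the block, where 3.33% and 6.46% of all genes were. This group joins the lists for the Arp2/3 complex, its activators, its inhibitors and debranching factors, and the cofilin pathway. Calls were planned per list, so the joined count is a description. Of 10 subunits of the Arp2/3 complex 0 were called in either fit (1 at an unadjusted p under 0.05 with the block); Actr2 was at 359.1 ± 30.6 CPM in KO and 353.5 ± 32.9 CPM in WT, with Actr3 at 331.0 ± 21.7 CPM in KO and 315.9 ± 23.8 CPM in WT (SD, n = 3). Of 17 Arp2/3 activators 0 were called; the WAVE complex gene Nckap1 was at 401.4 ± 16.0 CPM in KO and 396.2 ± 28.9 CPM in WT, and the cortactin gene Cttn at 248.0 ± 14.5 CPM in KO and 266.6 ± 25.8 CPM in WT. Of 3 inhibitors and debranching factors 0 were called; Arpin, an Arp2/3 inhibitor, was at 26.2 ± 1.88 CPM in KO and 32.3 ± 1.61 CPM in WT, without overlap and with adjusted p = 0.0518 with the block, and Gmfb was at 214.4 ± 16.5 CPM in KO and 222.5 ± 21.8 CPM in WT. In the cofilin pathway, which disassembles old filaments, 1 of 16 members rose with the block, Cap2, at 42.4 ± 8.40 CPM in KO and 31.2 ± 6.53 CPM in WT (SD, n = 3; log2 difference 0.44 ± 0.0703, SE, adjusted p = 0.00355).

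Among genes for proteins that cap, sever or crosslink filaments, 3 of 30 rose and 6 fell with the block. These were 10.0% and 20.0%, where 3.33% and 6.46% of all genes did so. This group joins the capping and severing list with the crosslinker list, and the joining was not planned. No test compares these shares, and they are not read as a result about the group. Flnc, a filamin that crosslinks actin, was at 20.6, 27.2 and 25.8 CPM in KO 1, 2 and 3, against 44.5, 71.2 and 65.7 CPM in WT 1, 2 and 3, without overlap. Its log2 fold change was −1.28 ± 0.0807 with the block (SE, edgeR adjusted p = 1.68e-05) and −1.30 ± 0.210 without it (edgeR adjusted p = 0.156). Of 13 crosslinkers 1 rose and 3 fell with the block, and Tagln was at 5.24 ± 3.66 CPM in KO and 11.0 ± 8.21 CPM in WT (SD, n = 3), with 1.05 and 1.54 CPM in KO 1 and WT 1. Of 17 capping and severing genes 2 rose and 3 fell with the block. Eps8 was at 71.5, 72.4 and 69.1 CPM in KO 1, 2 and 3, against 108.6, 95.3 and 94.6 CPM in WT 1, 2 and 3. Capg was at 4.35 ± 2.31 CPM in KO and 11.4 ± 7.43 CPM in WT. Its groups overlapped, at 1.70 to 5.98 CPM in KO and 3.22 to 17.7 CPM in WT.

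The remaining lists were small, and with the block 3.33% of all genes were called higher and 6.46% lower. Their few calls are given beside these shares and are not read as results about the lists. Of 12 formins, which elongate unbranched filaments, 1 rose and 2 fell with the block, Inf2 at 23.02 ± 10.3 CPM in KO and 31.9 ± 16.4 CPM in WT and Daam2 at 26.7 ± 15.3 CPM in KO and 35.6 ± 22.4 CPM in WT (SD, n = 3). With KO 2 and KO 3 summed and number 1 as the block 0 formins were called, with adjusted p = 0.0767 for Inf2 and 0.184 for Daam2, and Daam2 was also not called in numbers 2 and 3 alone (0.0800). Of 16 focal adhesion genes 1 rose and 2 fell; Parvb was at 107.4 ± 29.6 CPM in KO and 140.4 ± 38.8 CPM in WT and Tns2 at 13.0 ± 2.09 CPM in KO and 8.02 ± 3.12 CPM in WT. In numbers 2 and 3 alone Tns2 was not called (adjusted p = 0.0650). Of 8 monomer-binding and Ena/VASP genes 1 was called higher, the thymosin gene Tmsb10, at 1392 ± 39.9 CPM in KO and 1105 ± 175.8 CPM in WT. Its adjusted p was 0.0350 with the replicate block, 0.836 without it, 0.0875 with number 1 as the block, 0.265 when both libraries numbered 1 were left out and 0.241 after summing KO 2 with KO 3, with number 1 as the block. Of 4 tested actin genes 1 was called higher with the block, Actc1, at 7.79 ± 5.44 CPM in KO and 2.41 ± 1.28 CPM in WT. Its groups overlapped, with 1.53 CPM in KO 1 against 2.90 and 3.37 CPM in WT 2 and WT 3. Without the block edgeR's adjusted p for Actc1 was 0.98.

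**Figure D5:**
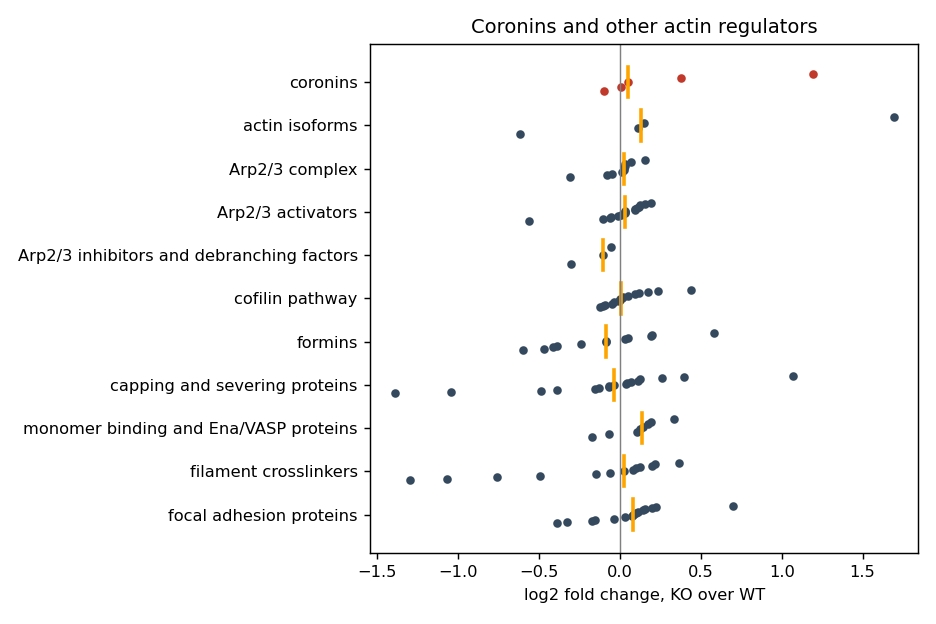
Log2 fold change, KO over WT without the block (x axis), of every tested gene in each list; orange bars are list medians, and the vertical offset within a list only separates points. Coro2b at 1.20, by whose difference the family was chosen, is the coronin farthest from 0, and the Arp2/3 complex has a median of 0.02.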

How the data were processed

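RNA-seq was compared between 3 KO and 3 WT libraries. The table deposited by the authors gives raw whole counts for each gene symbol. Reads had been handled with RSEM, Bowtie2, Trim Galore, cutadapt and FastQC on mm10, per the submitters' processing notes; versions, annotation, use of strand and rounding of estimates are not given in these sources. Groups and numbers came from sample titles. Lengths and positions came from GENCODE vM21 on GRCm38 (23334 of 24503 symbols matched), and level per length used the union of exons, so unused exons lower it.

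Counts were filtered with filterByExpr, scaled by TMM and tested in edgeR 4.0.16 (R 4.3.3) with robust quasi-likelihood fits over all genes, two-sided, with Benjamini-Hochberg adjustment and a threshold of 0.05; DESeq2 1.42.0 was an alternative. SE was taken as log2 fold change over root F. Log2 CPM used a prior count of 0.5. The fits were also run on simulated counts, with replicate number and added genotype changes as the only structure. Simulated libraries were drawn independently, so that run cannot tell whether the real libraries shared a culture.

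Replicate numbers 1 to 3 occur in both groups. Deviations from group means correlated by 0.826, 0.577 and 0.556 across genes for pairs 1, 2 and 3, all over 0.1, so the numbers were treated as pairs; this comes from the data, not the labels, and 2 and 3 are not told apart (0.592 for WT 2 with KO 3). The median chi-square per gene was 1.02 between KO 2 and KO 3 and 5.25 between WT 2 and WT 3, where counting noise alone gives 0.455. KO 2 and KO 3 were kept as 2 samples. This value cannot show that they came from separate cultures, since 2 libraries of 1 culture can also exceed counting noise.

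Members and lists were chosen with earlier results of these data known. Named genes were the coronins, Phf2, genes overlapping a coronin, the 2 nearest tested genes on each side of Coro2b, the 5 genes most like it, and per actin list the 2 members with the lowest p among called ones (with the block where none was called without it), or else with the highest CPM. Some genes and lists are not reported here. Tmod1 and the cell type markers named in the text were chosen after their values were seen.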

Additional observations from a re-analysis of the deposited data

How the results depend on the processing

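The number of genes called between KO and WT, 8 in edgeR without the block, was 1340 with the replicate block, 1445 with number 1 as the block, 743 in numbers 2 and 3 alone, 262 by DESeq2, 688 with KO 2 and KO 3 summed and number 1 as the block, and 0 with them summed without it (495 at an unadjusted p under 0.05). Leaving out 1 library gave 0 to 21 calls; the 21 came without WT 1, and the 5 fits with 0 calls had 499 to 864 genes at an unadjusted p under 0.05. Coronins other than Coro2b numbered 0 in edgeR without the block, and 1, Coro1c, with the replicate block, with number 1 as the block, in numbers 2 and 3 alone (adjusted p = 0.0278) and with KO 2 and KO 3 summed and number 1 as the block (0.0318); the adjusted p over its 15 alternatives ran from 0.0025 to 1. The replicate block changed no other coronin's call. Actin regulators numbered 0, against 18 with the replicate block, 18 with number 1 as the block, 12 in numbers 2 and 3 alone, 3 by DESeq2, 10 with KO 2 and KO 3 summed and number 1 as the block, and 0 to 1 when 1 library was left out. Libraries numbered 1 differed from the others in 7879 genes, and in 5131 to 9264 when 1 library was left out, the fewest without WT 1, where the lone library numbered 1 is assumed to vary like the others.

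Coro2b was higher in KO under all 15 alternatives, with log2 fold changes from 1.12 to 1.34. All of them reuse the libraries in which Coro2b was chosen for its low p. The range thus describes how its value moved with processing and is no separate support. The differences of the uncalled members changed sign: Coro1a (0.00) was −0.09 in numbers 2 and 3 alone, −0.03 with upper-quartile scaling, −0.04 with KO 2 and KO 3 summed, and −0.17 to 0.15 when 1 library was left out; Coro1b (0.05) was −0.01 with KO 2 and KO 3 summed and −0.08 to 0.18 when 1 library was left out; Coro7 (−0.10) was −0.36 to 0.16 when 1 library was left out. For number 1, the Coro1a call did not hold in DESeq2 (adjusted p = 0.0543) nor the Coro1c call with upper-quartile scaling (0.0641). The order of the members per length in WT did not change with the longest coding transcript as length or with the DESeq2 size factors; on the first, Coro2b and Coro1b overlapped in KO. The causes were not tested. Depth limits Coro2a and Coro6, with 33 and 18 counts over 6 libraries.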
